A study of Homo sapiens with 6 samples.

Results

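The enzymes that write, keep and remove DNA methylation were described here at the RNA level in HT-29 cells. The treated cells were given a drug that binds the DNA methyltransferases among them. The 10 genes were DNMT1, DNMT3A, DNMT3B, DNMT3L, UHRF1, HELLS, TET1, TET2, TET3 and MBD4. They were chosen by symbol, and every probe set annotated to one of them was taken. A probe set is a group of short probes on the array that is read as 1 signal. The 10 genes were measured by 24 of 54614 probe sets, and they stand among 19775 genes with a probe set of their own. Each of the 24 carried a single gene symbol. Where a gene had several, the one with the highest mean signal represented it, leaving out cross-hybridizing (_x_at) probe sets.

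HT-29 is an established human colon adenocarcinoma cell line. Treated cells were kept for 72 hours in serum-free medium with 10 µM 5-aza-2′-deoxycytidine (5-Aza), and control cells received only its solvent, water with acetate. Each group had 3 arrays of the HGU133 Plus 2.0 type, and the question was which transcripts change when methylation is removed. No source used here tells separate cultures from repeat hybridizations of one culture, and the p-values therefore cover only array-to-array spread, which may be technical.

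DNA methylation is copied at every cell division. UHRF1 binds CpG sites that are methylated on the old strand only and brings in DNMT1, which methylates the new strand, while the remodeler HELLS gives the methylation machinery access to packed chromatin. DNMT3A and DNMT3B place methyl groups on unmethylated sites, with DNMT3L as a partner that has no catalytic activity. TET1, TET2 and TET3 oxidize 5-methylcytosine, and the glycosylase MBD4 removes thymine from mismatches left by deaminated 5-methylcytosine. 5-Aza is built into new DNA in place of deoxycytidine and binds the DNA methyltransferases covalently, which removes the protein. The arrays measured transcripts, not protein or methylation.

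The arrays had been scaled to a trimmed mean of 500, and their median signals were 83.1 to 85.8 in treated and 71.5 to 76.7 in control cells. Correlations between arrays lay between 0.926 and 0.934. The 3′ probes of ACTB, a check of RNA integrity, exceeded the 5′ probes by 0.64 to 0.80 on the log2 scale in treated and by 0.46 to 0.60 in control cells, and the part of this in the results was not tested. Of 10 colon epithelium markers 9 lay above background, with CDX1 below it, and their summed signal was 118769 to 129580 in treated and 113413 to 139686 in control cells. Among them CEACAM5 was higher at an unadjusted p under 0.025, by 0.96 on the log2 scale (limma unadjusted p = 0.00165, adjusted p = 0.319). Of all genes 3.01% were higher at that p. The 10 markers had 5 positive and 5 negative log2 fold changes. The lowest was -1.32 for CDX2, at 91.6, 26.0 and 10.4 in treated and 62.1, 83.9 and 81.4 in control cells (limma unadjusted p = 0.146, adjusted p = 0.785). Of 5 fibroblast markers 2 had a mean above background (COL1A1 and COL1A2), as did 1 of 3 leukocyte markers (CD3E) and 1 of 3 endothelial markers (PECAM1), while VWF, not above background, differed by 1.95 (limma unadjusted p = 0.0150, adjusted p = 0.579). Background was taken as 42, the highest signal of the bacterial TrpnX control probe sets. Of the 24 probe sets, 21 had a mean signal above it.

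None of the 10 genes changed past an adjusted p of 0.05 in limma, in either direction. Of the 24 probe sets 0 passed, beside 0% of all probe sets in each direction, whose smallest adjusted p was 0.0903. The adjusted p of the 24 ranged from 0.511 to 0.990. At an unadjusted p under 0.025, 1 of the 24 was higher in limma, a HELLS probe set, against 2.97% of all probe sets. None was lower, against 1.05% of all. The methods of the paper give that p for this comparison, but with Significance Analysis of Microarrays (SAM) and a ranking by log2 fold change. Neither was used here, so these calls are not those of the paper. At an unadjusted p under 0.05 in limma the counts of the 24 were again 1 higher and 0 lower, beside 2873 higher and 1078 lower among all probe sets.

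The differences were small where the signal was strong. In the 9 genes whose representative probe set lay above background, the log2 fold change (5-Aza minus control, on the log2(signal + 1) scale) lay between -0.22 and 0.34. The 95% intervals of these 9, taken as fold changes, reached from 0.619 to 1.87 at their outermost bounds, and each of them held 1. The median log2 fold change of the 24 probe sets was 0.10, beside 0.062 for all probe sets. Of the 24, 17 values were positive and 7 negative, but centring each array on its median moved the median of all probe sets by 0.19 on the log2 scale and turned 6 of the 10 representative values from positive to negative.

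**Figure D1:**
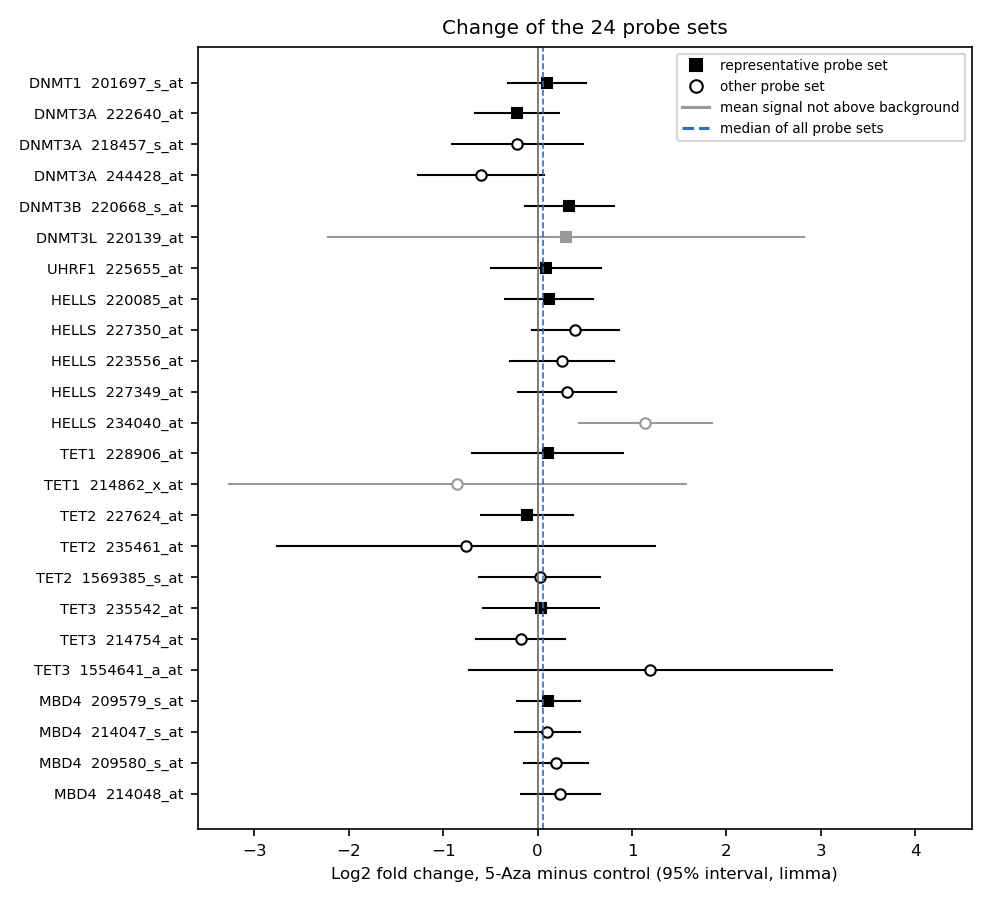
Log2 fold change of the 24 probe sets (5-Aza minus control) with 95% intervals from limma, on the horizontal axis, with squares for the probe set that represents a gene, circles for others, grey for a mean signal not above background and a dashed line for the median of all probe sets. Only the interval of HELLS 234040_at, at 0.43 to 1.84, leaves 0 out. After centring the arrays on their medians, the squares of DNMT1, UHRF1, HELLS, TET1, TET3 and MBD4 join those of DNMT3A and TET2 below 0.

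DNMT1, the maintenance methyltransferase itself, was nearly level between the groups. Its signal was 2466, 2410 and 2453 in the treated cells (replicates 1 to 3) and 2027, 2664 and 2207 in the control cells (201697_s_at). The 3 treated values lay close together and inside the range of the controls, which control replicate 2 stretched upward. Treated cells averaged 2443 ± 29.6 and control cells 2300 ± 329 (SD, n = 3 each). The log2 fold change was 0.097 (95% interval -0.31 to 0.51, limma adjusted p = 0.919, exact permutation p = 0.4, two-sided).

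UHRF1, the reader of half-methylated CpG sites, had the same layout. The treated cells gave 2437, 2283 and 2529 and the control cells 1950, 3071 and 1945 (225655_at). Control replicate 2 was the highest of all 6 arrays, and the other two controls were the lowest. On the log2 scale the groups differed by 0.091 with a standard error of 0.23 (95% interval -0.49 to 0.67, limma adjusted p = 0.951, exact permutation p = 0.8).

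HELLS, the chromatin remodeler, had 5 probe sets, and all of their log2 fold changes were positive, from 0.12 to 1.14, although the lowest became -0.062 after centring on the array median. Its representative probe set (220085_at) read 1026, 934 and 1179 in treated and 854, 1125 and 908 in control cells, and the groups overlapped. Its log2 fold change was 0.12 (limma adjusted p = 0.908, exact permutation p = 0.5). On 227350_at every treated array, at 907.5, 1046 and 1069, lay above every control array, at 787, 878 and 642. There the log2 fold change was 0.40 with a standard error of 0.18 (limma unadjusted p = 0.0783, adjusted p = 0.730). With a variance trend and robust variances in limma its unadjusted p was 0.0176 and its adjusted p 0.472. The mean of all HELLS probe sets, taken in place of the representative, gave 0.45 on the log2 scale at an unadjusted p of 0.0226 and an adjusted p of 0.547 in limma.

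The HELLS probe set with the greatest difference had a mean signal not above background. On 234040_at the treated cells gave 58.3, 32.9 and 48.5 and the control cells 23.1, 15.8 and 22.0, with no overlap. All 3 treated arrays exceeded the TrpnX signal of their own array and 0 of the 3 control arrays did, so the control level is at background. The log2 fold change was 1.14 (standard error 0.28, 95% interval 0.43 to 1.84, limma unadjusted p = 0.00830, adjusted p = 0.511, exact permutation p = 0.1, the smallest that 3 against 3 arrays allow). It was 0.77 when 16 in place of 1 was added before the log. With a variance trend in limma the unadjusted p was 0.0943, and it was 0.0267 without 5-Aza replicate 1, 0.0299 without 5-Aza replicate 3 and 0.0262 without control replicate 2 (limma). The other HELLS probe sets, all above background, differed by 0.12 to 0.40 on the log2 scale.

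DNMT1, UHRF1 and HELLS shared a letter pattern near their gene starts. These genes and DNMT3B also shared their highest control array (given after the sequences), but the DNMT3B window lacked the pattern. A link between the pattern and that array was not tested. Promoter windows from RefSeq (GRCh38.p14), 250 bases before to 50 after a gene start, were searched on both strands for TTTCCCGC, TTTCGCGC, TTTGCCGC and TTTGGCGC, the words of the E2F motif. E2F factors drive genes needed for DNA replication. A window held one of the words for 3 of the 9 genes with a window (33.3%), DNMT1, UHRF1 and HELLS, beside 3.99% of all 27305 genes, 6.43% of the 12217 genes with a window of 20 or more CpG sites, and 9 of 12 S phase genes (75%). A gene with several windows has more places for a match. Counted by window, 4 of 20 held a word (20%), beside 3.31% of all windows. The share was 5.78% of windows with 20 or more CpG sites and 60% of the S phase windows. The DNMT1 window is chr19:10194904-10195203 on the minus strand, those of UHRF1 are chr19:4909251-4909550 and chr19:4909894-4910193 on the plus strand, and that of HELLS is chr10:94545538-94545837 on the plus strand. Capitals mark the words, as they read on the gene's strand, and no words overlap. The word begins 2 bases before the start of DNMT1, 14 bases before the upstream and 160 before the downstream start of UHRF1, and 76 and 8 bases before that of HELLS. A match is a description of the letters and not a bound site.
DNMT1: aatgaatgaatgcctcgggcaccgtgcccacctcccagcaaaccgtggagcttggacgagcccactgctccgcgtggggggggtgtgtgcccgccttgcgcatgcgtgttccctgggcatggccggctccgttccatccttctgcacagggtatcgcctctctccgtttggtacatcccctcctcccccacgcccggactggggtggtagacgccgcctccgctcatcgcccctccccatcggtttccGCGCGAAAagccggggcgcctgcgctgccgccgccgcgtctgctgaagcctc
UHRF1, window at the upstream start: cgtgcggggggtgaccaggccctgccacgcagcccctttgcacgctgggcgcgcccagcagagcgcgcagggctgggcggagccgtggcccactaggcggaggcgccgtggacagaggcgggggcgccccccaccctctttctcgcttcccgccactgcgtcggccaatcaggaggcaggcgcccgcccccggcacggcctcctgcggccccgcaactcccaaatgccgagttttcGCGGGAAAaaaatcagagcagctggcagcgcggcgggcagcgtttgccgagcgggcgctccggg
UHRF1, window at the downstream start: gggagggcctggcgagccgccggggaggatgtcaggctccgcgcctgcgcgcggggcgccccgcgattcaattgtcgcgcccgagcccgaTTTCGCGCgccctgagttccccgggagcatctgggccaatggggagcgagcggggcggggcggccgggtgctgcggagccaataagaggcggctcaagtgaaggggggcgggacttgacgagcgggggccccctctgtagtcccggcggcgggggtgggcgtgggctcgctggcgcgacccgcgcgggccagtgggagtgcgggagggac
HELLS: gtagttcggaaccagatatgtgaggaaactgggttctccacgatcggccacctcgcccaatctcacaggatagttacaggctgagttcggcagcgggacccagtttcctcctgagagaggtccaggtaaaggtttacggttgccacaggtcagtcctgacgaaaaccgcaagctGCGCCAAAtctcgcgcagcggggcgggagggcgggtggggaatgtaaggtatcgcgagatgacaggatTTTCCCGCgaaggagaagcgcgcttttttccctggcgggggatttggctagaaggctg

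The windows were also rich in CpG, the sites that the enzymes act on. They held 30 CpG sites in DNMT1, 36 and 40 in UHRF1 and 22 in HELLS. The median was 27 over the 20 windows of the genes described here and 14 over all windows. Windows without the words held from 3 (DNMT3B) to 46 (DNMT3A and UHRF1) CpG sites, so CpG content did not mark out those with them. The third UHRF1 window had none of the words, nor had the windows of DNMT3A, DNMT3B, TET1, TET2, TET3 and MBD4. The DNMT3B window held 3 CpG sites, the fewest of the 20 windows of these genes. Its transcript start lies 17467 bases inside the annotated gene, and the UHRF1 starts lie 6421, 7064 and 7287 bases inside theirs, so these windows do not cover the outermost 5′ end of either gene, while those of DNMT1 and HELLS do.

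In DNMT1, UHRF1, HELLS and DNMT3B, where HELLS gave most of the probe sets, control replicate 2 stood apart. Among the 3 control arrays it was highest in 7 of 7 probe sets above background of DNMT1, UHRF1, HELLS and DNMT3B, by 0.30 to 0.66 on the log2 scale over the mean of controls 1 and 3. In DNMT3A, TET1, TET2 and TET3 it was the lowest control in 10 of 10 probe sets above background, by 0.14 to 1.78 under the mean of controls 1 and 3. The gap to the next control could be slight, as on DNMT3A 244428_at with 70.9 beside 71.1. The 1.78 came from TET3 1554641_a_at, where control replicate 2 read 9.9, a signal under background. For MBD4 control replicate 2 was highest in 2 and lowest in 1 of 4. These sets of genes were formed after their values were seen. Over all 33200 probe sets above background the array was the highest control in 32.1% and the lowest in 39.3%, with a median difference of -0.022. Quantile normalization and centring each kept 7 of 7 and gave 9 of 10.

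Genes of DNA replication stood apart on the same array, and genes of other lists did so less often. In a list of 15 S phase and E2F target genes (among them the thymidylate synthase TYMS and the ribonucleotide reductase subunit RRM1), control replicate 2 was the highest control for 15 of 15 and the highest of all 6 arrays for 12, beside 17.1% of all probe sets above background, with a median difference of 0.60 from the other two controls. The mean deviation of the list from the 6-array mean was 0.36 on control replicate 2, -0.21 and -0.18 on control replicates 1 and 3, and -0.031 to 0.050 on the treated arrays. Its 15 genes had a median log2 fold change of 0.017 between the groups, with 0 past an adjusted p of 0.05 or an unadjusted p of 0.025 in limma, and TYMS differed by 0.082 and RRM1 by 0.13. In other lists, counting genes above background, control replicate 2 was also often the highest of all 6 arrays. This held for 50% of the methyl donor cycle genes, 46.2% of the maintenance methylation partners and 44.4% of the colon epithelium markers. The share was 31.25% for the active demethylation factors and 14.3% for the methyl-CpG readers. In bulk RNA, more cells in S phase, more S phase transcripts per cell and a technical deviation of this array cannot be told apart. The part of this array's difference in the group comparison was not tested.

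**Figure D2:**
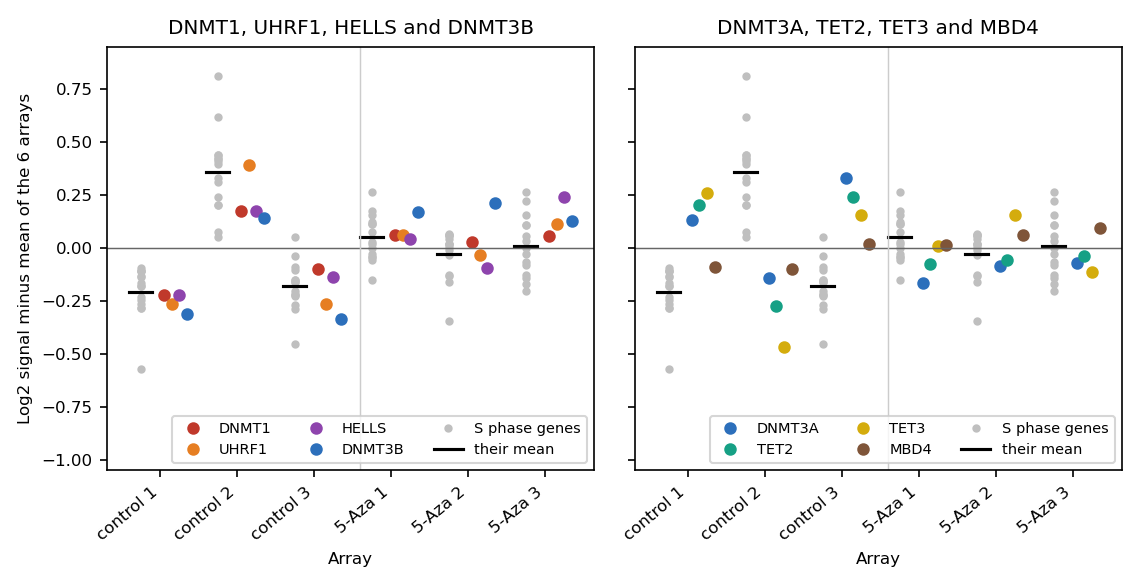
Log2 signal of each array minus the mean of the 6 arrays (vertical axis) for the representative probe sets of DNMT1, UHRF1, HELLS and DNMT3B (left) and of DNMT3A, TET2, TET3 and MBD4 (right), with the 15 S phase genes in grey and their mean as a black bar in both panels. On control replicate 2 the S phase mean stands at 0.36, with UHRF1 at 0.39 and TET3 at -0.47, while DNMT1, UHRF1, HELLS and DNMT3B are all below 0 on control replicates 1 and 3.

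Leaving out control replicate 2 separated the groups in more of these genes. This array was the highest control for those 7 probe sets, so the treated arrays draw away from the controls by construction. The treated arrays then lay above both remaining controls in 10 of the 24 probe sets, beside 15.9% of all probe sets, and below both in 4, beside 11.3%. All 7 probe sets of DNMT1, UHRF1, HELLS and DNMT3B above background were among the 10. The log2 fold change became 0.21 for DNMT1, 0.31 for UHRF1, 0.24 for HELLS (220085_at) and 0.49 for DNMT3B. Still 0 of the 24 passed an adjusted p of 0.05 in limma (0% of all were higher), and at an unadjusted p under 0.025 DNMT3B alone was higher (3.15% of all) and none was lower (1.31% of all).

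DNMT3B, a de novo methyltransferase, had the largest positive change among the 9 representative probe sets above background. The treated cells gave 318, 328 and 309.7 and the control cells 228, 312.5 and 224 (220668_s_at). The treated arrays lay above control replicates 1 and 3, and only 309.7 against 312.5 on control replicate 2 kept the groups from separating. Treated cells averaged 319 ± 9.10 and control cells 254.9 ± 49.96 (SD, n = 3 each), and the log2 fold change was 0.34 (95% interval -0.13 to 0.81, limma adjusted p = 0.773, exact permutation p = 0.2). Without control replicate 2 it was 0.49, at an unadjusted p of 0.0219 and an adjusted p of 0.539 in limma.

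DNMT3A, the other active de novo enzyme, had negative values on all 3 of its probe sets. Its representative (222640_at) read 1469, 1554 and 1571 in treated and 1811, 1494 and 2076 in control cells. Control replicate 2 lay among the treated arrays and the other two controls above them. Its log2 fold change was -0.22 (95% interval -0.66 to 0.23, limma adjusted p = 0.842, exact permutation p = 0.3).

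The other DNMT3A probe sets gave -0.21 and -0.59 on the log2 scale. On the latter (244428_at), all treated arrays (36.4, 66.1 and 53.1) were below all control arrays (89.2, 70.9 and 71.1), at a limma unadjusted p of 0.0712 and an adjusted p of 0.724. It was the only one of the 24 probe sets with the treated group below the control group, beside 5.22% of all probe sets. The treated group was above the control group in 3 of the 24, beside 9.29% of all, and these were HELLS 227350_at, HELLS 234040_at and MBD4 209580_s_at.

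DNMT3L, the partner without catalytic activity, was at background. Its signals were 7.6, 7.2 and 75.7 in treated and 7.4, 13.1 and 23.4 in control cells (220139_at). Only the third treated array exceeded the TrpnX signal of its own array. DNMT3L had a log2 fold change of 0.30 with a 95% interval from -2.22 to 2.83 (limma adjusted p = 0.962, exact permutation p = 0.9), and without 5-Aza replicate 3 it was -0.76.

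**Figure D3:**
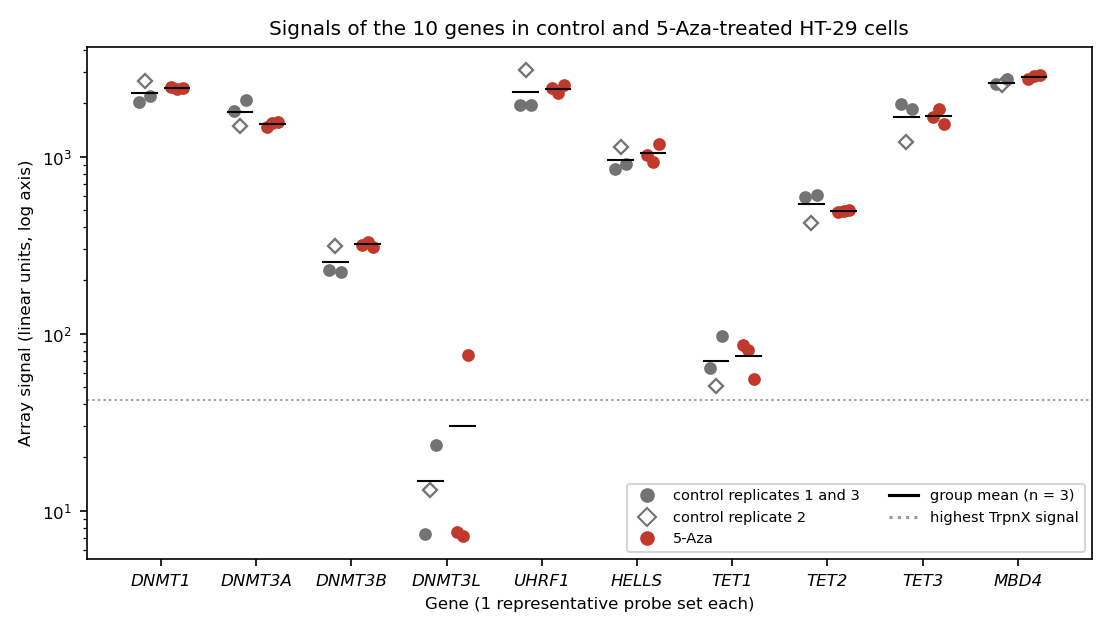
Signal of each of the 6 arrays (log axis) for the probe set that represents each of the 10 genes, with grey points for control arrays (an open diamond for control replicate 2), red points for 5-Aza arrays, bars for group means and a dotted line for background at 42. The treated points lie closer together than the control points in the 9 genes above background, and DNMT3L lies below the line on 5 of the 6 arrays.

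Replicates of most probe sets scattered less in the treated group. The SD of the log2 signal was smaller in treated than in control cells for all 9 representative probe sets above background. This held for 63.0% of all probe sets above background, with median SDs of 0.178 in treated and 0.241 in control cells.

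The demethylating dioxygenases did not separate the groups on their representative probe sets. TET2 (227624_at) read 486, 493 and 499 in treated cells beside 589, 424 and 604 in control cells. The treated values lay close together, between control replicate 2 and the other two controls. TET2 thus differed by -0.11 on the log2 scale (95% interval -0.59 to 0.37, limma adjusted p = 0.920, exact permutation p = 0.4). A TET2 probe set with the opposite sign (1569385_s_at) gave 41.3, 69.4 and 51.0 in treated and 50.2, 44.4 and 62.3 in control cells, with a difference of 0.025 on the log2 scale (limma adjusted p = 0.990).

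TET3 gave values of both signs. Its representative (235542_at) read 1671, 1854 and 1537 in treated and 1988, 1201 and 1853 in control cells. Control replicate 2 was the lowest of all 6 arrays, and the log2 fold change of 0.035 (95% interval -0.58 to 0.65, limma adjusted p = 0.985, exact permutation p = 0.9) became -0.19 without it. On 214754_at the treated cells gave 302, 286 and 329.5 and the control cells 324, 302 and 422, a log2 fold change of -0.18 (limma adjusted p = 0.869). The third probe set, 1554641_a_at, differed by 1.19 on the log2 scale, but its control values ran from 9.9 to 73.2 and its interval from -0.73 to 3.12.

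TET1 was close to background. Its representative (228906_at) read 86.7, 81.0 and 55.5 in treated and 63.7, 50.3 and 97.0 in control cells, so the groups were intermixed. Treated minus control gave 0.11 on the log2 scale (95% interval -0.69 to 0.91, limma adjusted p = 0.957, exact permutation p = 0.9), and it was -0.10 without control replicate 2. The other TET1 probe set lay below background.

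MBD4, the mismatch glycosylase, had the smallest standard error of the 10 representative probe sets, 0.13 on the log2 scale. All 4 of its probe sets had positive values, from 0.10 to 0.24 on the log2 scale, although that of the representative became -0.073 after centring on the array median. The representative (209579_s_at) read 2750.0, 2841 and 2899 in treated and 2555, 2540 and 2753 in control cells. The groups overlapped only between 2750.0 and 2753, and the log2 fold change was 0.11 (95% interval -0.22 to 0.45, limma adjusted p = 0.883, exact permutation p = 0.2). On 209580_s_at the treated arrays (1409, 1567 and 1500) lay above the control arrays (1296, 1329 and 1270), a log2 fold change of 0.20 (limma unadjusted p = 0.197, adjusted p = 0.808, exact permutation p = 0.1). The discussion of the paper gives MBD4 as an example of the genes that its approach identified. That approach took transcripts that were lower in tumors and higher in treated cells. The MBD4 values here were positive, but no MBD4 probe set passed an unadjusted p under 0.025 in limma. The SAM call of the paper was not repeated, and the reason for the difference was not tested.

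The partners of these enzymes were also largely level. Of 13 partners of maintenance methylation, 0 passed an unadjusted p of 0.025 in limma in either direction, with a median log2 fold change of 0.0036. All genes gave 3.01% higher and 0.915% lower at that threshold, and a median of 0.038. HDAC1, a histone deacetylase, differed by -0.095 on the log2 scale and PCNA, the sliding clamp of replication, by 0.14. Of 7 methyl-CpG readers, 0 passed in either direction, with a median of -0.059, and ZBTB33 (-0.12) and MBD2 (-0.094), proteins that bind methylated DNA, had the highest mean signals. Of 13 genes of the methyl donor cycle, 0 passed in either direction, with a median of -0.048. Other settings added single genes at that unadjusted p in limma. EHMT2, a histone methyltransferase that differed by -0.41, passed it with a variance trend, after median centring and among probe sets above the median signal (limma adjusted p = 0.361, 0.551 and 0.403). Among the donor cycle genes SHMT2, which feeds the folate pool, differed by -0.22 on the log2 scale. Its signal was 15292 on control replicate 2, beside 9027 and 10152.5 on control replicates 1 and 3 and 9873, 9137 and 9796 in treated cells. AHCY, which clears S-adenosylhomocysteine, differed by -0.24 on the log2 scale, with an unadjusted limma p of 0.124 that was 0.0105 with the trend. Without control replicate 2 BHMT was higher by 2.63 on the log2 scale (limma adjusted p = 0.449), with a mean not above background, and without control replicate 3 CBS was higher by 1.05 (limma adjusted p = 0.425), both past the unadjusted threshold.

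Among 16 factors of active demethylation, 1 was higher (6.25%) and none lower by the unadjusted limma p of 0.025, and the median log2 fold change was -0.067. The 1 was APOBEC3B, a cytidine deaminase. Its signal was 1807, 1712 and 2002 in treated and 1061, 1234 and 1102 in control cells (206632_s_at), with no overlap. APOBEC3B differed by 0.70 on the log2 scale with a standard error of 0.15 (limma unadjusted p = 0.00474, adjusted p = 0.455, exact permutation p = 0.1). APEX1, an endonuclease of base excision repair, differed by -0.39 at an unadjusted limma p of 0.0414, which was 0.00107 with the variance trend, 0.00914 after median centring and 0.0128 among probe sets above the median signal. No gene of the 5 lists passed an adjusted p of 0.05, as none of all genes did, of which 596 were higher and 181 lower at the unadjusted threshold.

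**Figure D4:**
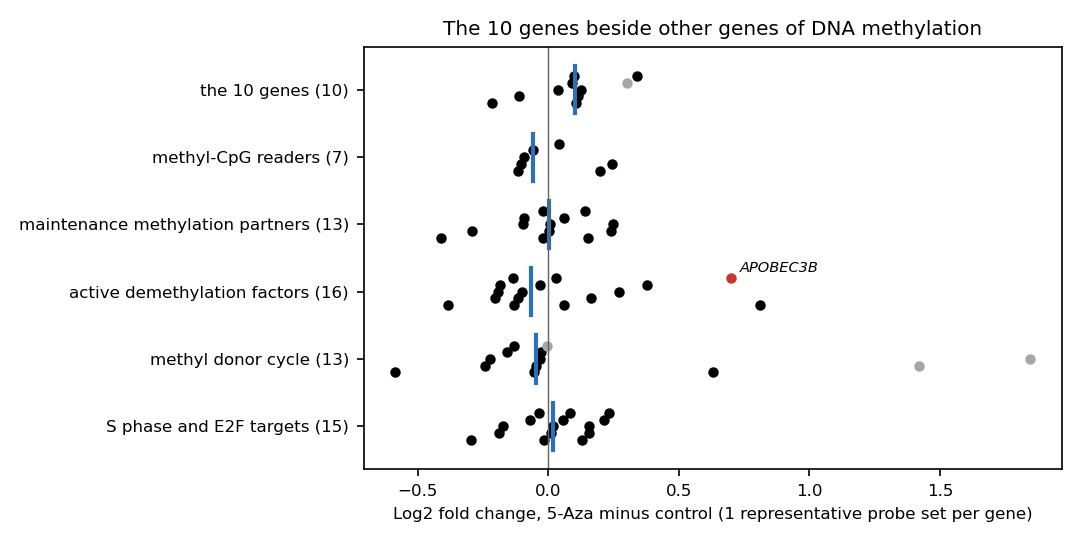
Log2 fold change (5-Aza minus control, horizontal axis) of each measured gene in the 10 genes described here and in 5 lists of related genes, with red for an unadjusted p under 0.025 in limma, black for other genes above background, grey for those not above it and a blue bar for the median. The medians of the 6 sets lie between -0.067 and 0.10, and APOBEC3B is the only red point; after centring on the array median 6 of the 10 genes described here move from above to below 0.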

How the data were processed

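RNA of HT-29 cells was measured on 6 arrays, 3 with 5-Aza and 3 control. The authors deposited linear intensity values, 1 signal for each probe set and array, made per the submitters' notes with the affy package (version not given), and the summary method is not given in the sources used here. The trimmed mean without the lowest and highest 2% was 500 on every array. On RNA input the sources differ, with 3 µg and RNeasy Mini in the labels but less RNA and RNeasy Micro in the methods.

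After 61 control probe sets were removed, log2(signal + 1) of 54614 probe sets was compared with limma 3.58.1 in R 4.3.3, with group as the only term and Benjamini-Hochberg adjustment over all of them. The limma fits were tested on simulated data. Single values were also compared with an exact two-sided permutation test of the 6 arrays, whose smallest p is 0.1. Genes were named from the platform annotation, in which 41097 probe sets have 1 symbol, 1801 several and 11777 none. The genes named were all 10 with their representative probe set, other probe sets of theirs with an unadjusted p under 0.025 or, above background, the opposite sign, and from each list the genes at that p or else the 2 with the highest mean signal. Further probe sets were named after their values were seen (HELLS 227350_at, DNMT3A 244428_at, MBD4 209580_s_at and TET3 1554641_a_at). The 10 genes and all lists were chosen with earlier results of these data known. Some listed genes are not reported here, and no promoter window was used for DNMT3L. Same-numbered arrays did not deviate together (correlations -0.012 to 0.0097). The number of arrays limits the precision. Alternatives were quantile normalization, median centring, limma with trend and robust variance, a filter on dim probe sets, 16 added before the log, the mean of a gene's probe sets, the replicate number as a block and leaving out each array.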

Additional observations from a re-analysis of the deposited data

How the results depend on the processing

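No alternative brought any of the 10 genes past an adjusted p of 0.05 in limma (smallest for the representative probe sets 0.513), and of 129 alternative values of their representative probe sets 113 kept their direction and 16 turned. Centring on the array median gave log2 fold changes of -0.090 for DNMT1, -0.096 for UHRF1, -0.062 for HELLS, -0.080 for TET1, -0.15 for TET3, -0.073 for MBD4 and -0.16 for TET2 1569385_s_at. Quantile normalization gave -0.080 for TET1 and -0.17 for TET2 1569385_s_at, and averaging every probe set per gene gave -0.37 for TET1, -0.28 for TET2, 0.35 for TET3 and 0.45 for HELLS. When dim probe sets (below the median) were left out, 0 were higher at an unadjusted p under 0.025, since HELLS 234040_at was no longer tested. Leaving out 1 array at a time moved that count from 0 to 2, the number of probe sets with all treated arrays above all controls from 4 to 10, and the number below from 1 to 4 (both highest without control replicate 2). It moved the log2 fold change of TET1 from -0.10 to 0.36, TET3 from -0.19 to 0.17, UHRF1 from -0.019 to 0.31, DNMT1 from 0.011 to 0.21, HELLS from 0.035 to 0.24, DNMT3A from -0.34 to -0.10, TET2 from -0.28 to -0.021, DNMT3L from -0.76 to 0.85 and TET2 1569385_s_at from -0.17 to 0.20. With fewer arrays a separation is easier to meet, and otherwise the cause was not tested. Without control replicate 2, the treated arrays lay above both controls in 15.9% of all probe sets and below both in 11.3%. Shares of all probe sets without any other array are not given here. The arrays share only a number across groups. With the replicate block, 1 probe set of the 10 genes was higher at an unadjusted p under 0.025 (HELLS 234040_at, limma unadjusted p = 0.00527, adjusted p = 0.667), as without it, while APOBEC3B was no longer past it (0 of 16). The counts for control replicate 2 under other scalings were added after seeing the data. DNMT3L, TET1 214862_x_at and HELLS 234040_at were limited by signals near background. So were DNMT3A 244428_at, TET2 235461_at, TET2 1569385_s_at and TET3 1554641_a_at, each with at least 1 array under 42.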
